A study of Homo sapiens with 4 samples.

Results

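Fibroblast growth factors (FGFs), their receptors and the coreceptor beta-klotho were followed in HepG2 cells given AMF or DMSO. The 10 genes were taken by symbol from the deposited table, and all 10 had a row among its 30863 genes. They are the endocrine ligands FGF19 and FGF21, the paracrine ligands FGF9 and FGF2, the kinase receptors FGFR1, FGFR2, FGFR3 and FGFR4, the kinase-free receptor FGFRL1, and the coreceptor gene KLB. Both groups were wild-type cells of HepG2, an established liver tumour line that the labels name hepatoblastoma, and both were sampled at 48 h. The AMF group (2 libraries) had received AMF, which the series title spells out as the plant biflavonoid amentoflavone, and the DMSO group (2 libraries) had received only the solvent. The protocol gives a dose of 90 µM AMF while the design text speaks of 80 µM of an agent written Tub B, so the identity and dose of the agent are uncertain and AMF is used here as a group name. Whether the 2 libraries of a group came from different dishes is not stated. The p-values reflect only how far libraries of a group lie apart, possibly for technical reasons alone. For each gene that spread was estimated in part from other genes of like level.

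FGFs act through receptor tyrosine kinases that pair on the cell surface when ligand and a sugar chain or klotho protein bind together. Paracrine ligands such as FGF2 and FGF9 are held near their source by heparan sulfate, whereas FGF19 and FGF21 bind it weakly, circulate as hormones and need beta-klotho. In hepatocytes FGF19 from the intestine acts through FGFR4 with beta-klotho to lower bile acid synthesis, and the liver itself is a main source of FGF21, a hormone of fasting and nutrient stress. Receptor signalling runs through the adaptor FRS2 to RAS and the MAP kinases and is restrained by Sprouty, SPRED and DUSP proteins.

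Reads counted in genes ranged from 24226586 to 26966210 per library. Albumin (ALB), the defining hepatocyte transcript, had 122923 and 116050 normalized counts in AMF and 125341 and 117297 in DMSO, and was high in every library. Of 10 hepatocyte markers, 1 rose, 7 fell and 2 did not pass, and the list summed to 399083 and 378398 normalized counts in AMF and 532597 and 514264 in DMSO. Mitochondrially encoded genes took 9.53% and 9.61% of reads in AMF and 7.73% and 7.69% in DMSO. Reads were found in 25985 and 25632 genes in AMF and in 23929 and 24108 in DMSO. The part of these differences, and of the other cell type markers that follow, in the results was not tested. Of 9 fibroblast markers, 6 were tested, of which 1 rose (ACTA2, 1263 and 1165 reads in AMF and 760 and 755 in DMSO), 3 fell (COL1A1, PDGFRB and PDGFRA) and 2 did not pass, while LUM, DCN, COL1A2 and COL3A1 had at most 3 reads in any library. Of 6 endothelial markers, 4 were tested, of which 3 rose and 1 did not pass. Those that rose were PECAM1 (311 and 269 reads in AMF, 145 and 180 in DMSO), TIE1 (218 and 252 in AMF, 117 and 112 in DMSO) and ESAM (980 and 897 in AMF, 528 and 564 in DMSO), while KDR and TEK had at most 1 read. The endothelial list summed to 1409 and 1464 normalized counts in AMF and 796 and 881 in DMSO. Among cholangiocyte markers, 5 of 6 were tested, of which KRT19 and SPP1 rose, EPCAM and SOX9 fell and KRT7 did not pass. They summed to 35413 and 36077 normalized counts in AMF and 23822 and 23231 in DMSO. For immune markers, 4 of 6 were tested, of which 1 rose and 3 did not pass. The rise was that of CD14, with 34 and 19 reads in AMF and 5 and 12 in DMSO. Levels are given as normalized counts, which are reads divided by the size factor of the library. Log2 changes are AMF over DMSO on the log2(normalized count + 1) scale from limma, where a call means an adjusted p under 0.05 across all genes tested. In bulk RNA, fewer cells of a kind and less RNA per cell cannot be told apart.

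The genes fell into 2 ranges of level. FGFR1, FGFR3, FGFR4, FGFRL1 and KLB had means of at least 100 normalized counts, whereas the 4 ligands and FGFR2 had means under 100 and rested on 0 to 27 reads per library. FGFR2 stayed below the minimum mean of 1 normalized count, which left 9 genes in the test. Of these, FGF9 rose, FGF21, FGFR1, FGFR3 and FGFR4 fell, and FGF19, FGF2, FGFRL1 and KLB did not pass. Over all 23828 genes tested, 31.8% were called, 15.6% as higher and 16.2% as lower. Calls were more frequent in abundant genes, and of those averaging 100 or more, 54.7% were called and 31.1% were called lower. The 5 well-expressed FGF genes had 3 calls, a number near the 54.7% called. All 3 were lower, beside 31.1% called lower, and with 5 genes nothing is read from that direction. Among genes with a mean under 100 the share called was 11.7%, and FGF9 and FGF21 were the called genes of this set in that range. These 2 were also the called genes with a log2 change of at least 1, as were 7.02% of all genes. In 7 of the 9 genes the AMF and DMSO libraries did not overlap, which was so for 63.4% of all genes tested.

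**Figure D1:**
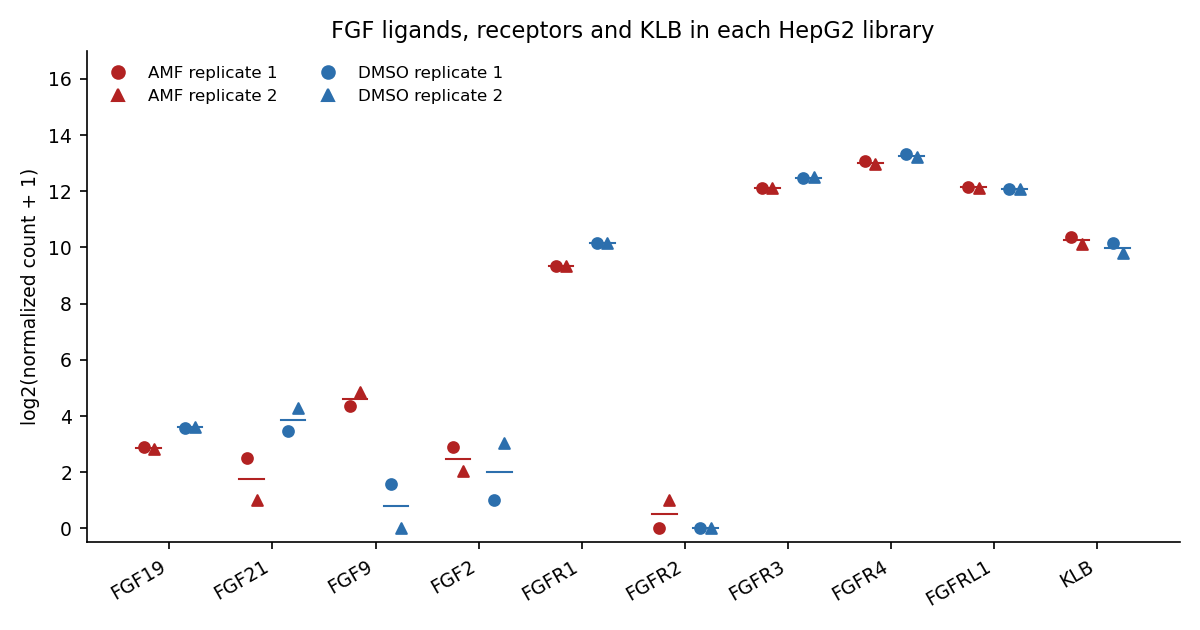
Levels of the 10 genes as log2(normalized count + 1), with AMF libraries in red to the left of DMSO libraries in blue, circles for replicate 1, triangles for replicate 2, and bars at the group means. The receptors FGFR3 and FGFR4 and the kinase-free FGFRL1 lie highest, the ligands and FGFR2 lie near the floor, and the groups of FGF9 stand apart with AMF above.

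FGF19, the bile acid hormone, had a low RNA level in every library. It had 6.50 and 6.18 normalized counts (7 and 6 reads) in AMF and 11.0 and 11.3 (11 and 11 reads) in DMSO. Both AMF libraries lay below both DMSO libraries, yet the difference did not pass (log2 change -0.73, SE 0.517, unadjusted 95% interval -1.84 to 0.38, adjusted p = 0.325). From 13 reads in AMF and 22 in DMSO, the read ratio was 0.570 with an exact binomial 95% interval of 0.264 to 1.18, which includes no difference.

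FGF21, the hormone that the liver secretes under fasting and cell stress, fell. Its levels were 4.64 and 1.03 normalized counts (5 and 1 reads) in AMF and 10.0 and 18.5 (10 and 18 reads) in DMSO. Both AMF libraries lay below both DMSO libraries, and within each group the libraries differed widely. The log2 change was -2.11 (SE 0.661, adjusted p = 0.0242), and the ratio of 6 reads in AMF to 28 in DMSO was 0.207 (exact 95% interval 0.0700 to 0.509). The call did not hold in limma-trend with any library left out, where the adjusted p was 0.161, 0.280, 0.152 and 0.225 without AMF replicate 1, AMF replicate 2, DMSO replicate 1 and DMSO replicate 2, with log2 changes from -2.85 to -1.38. Without either AMF library that fit called 0 genes in the whole table, and voom kept the FGF21 call without DMSO replicate 1 (adjusted p = 0.0227). The adjusted p was also 0.0641 with a pseudocount of 0.1 and 0.0655 without a filter on low values. The gene next to it in RefSeq, FUT1, a fucosyltransferase, fell too, with 73 and 70 reads in AMF and 135 and 258 in DMSO (log2 change -1.42, adjusted p = 3.55e-04). The other neighbour BCAT2, a transaminase of branched amino acids, rose by 0.97 (adjusted p = 2.38e-05).

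FGF9, a paracrine ligand that binds the IIIc forms of the receptors, rose and was close to absent in DMSO. It had 19.5 and 27.8 normalized counts (21 and 27 reads) in AMF, against 2.0 and 0 (2 and 0 reads) in DMSO. Both AMF libraries were well above both DMSO libraries. The log2 change was 3.81 (SE 0.674, adjusted p = 4.73e-04), and 48 reads in AMF against 2 in DMSO gave a ratio of 23.1 with an exact 95% interval of 6.07 to 197. In limma-trend the call ended without AMF replicate 1 or 2 and held without DMSO replicate 1 or 2, with log2 changes from 3.02 to 4.60. Without either AMF library that fit kept no call of any gene, so those losses are not particular to FGF9. Per exon length its level stood at percentile 35.0 in AMF and 14.8 in DMSO among the 21562 genes with a length. As given above, the AMF libraries had reads in more genes than the DMSO libraries, and the part of this in the FGF9 result was not tested.

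FGF2, the basic FGF of many tumour lines, had 6.50 and 3.09 normalized counts in AMF and 1.0 and 7.19 in DMSO. The groups overlapped, and the gene did not pass (log2 change 0.45, SE 0.787, adjusted p = 0.717). Its direction turned to -0.56 without DMSO replicate 1. NUDT6, a gene on the opposite strand that shares 804 bases of exon with FGF2 in GENCODE, had 154 and 125 reads in AMF and 98 and 83 in DMSO and rose (log2 change 0.57, adjusted p = 0.0184). The libraries did not keep strand, so reads of FGF2 and NUDT6 in the shared stretch cannot be told apart.

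**Figure D2:**
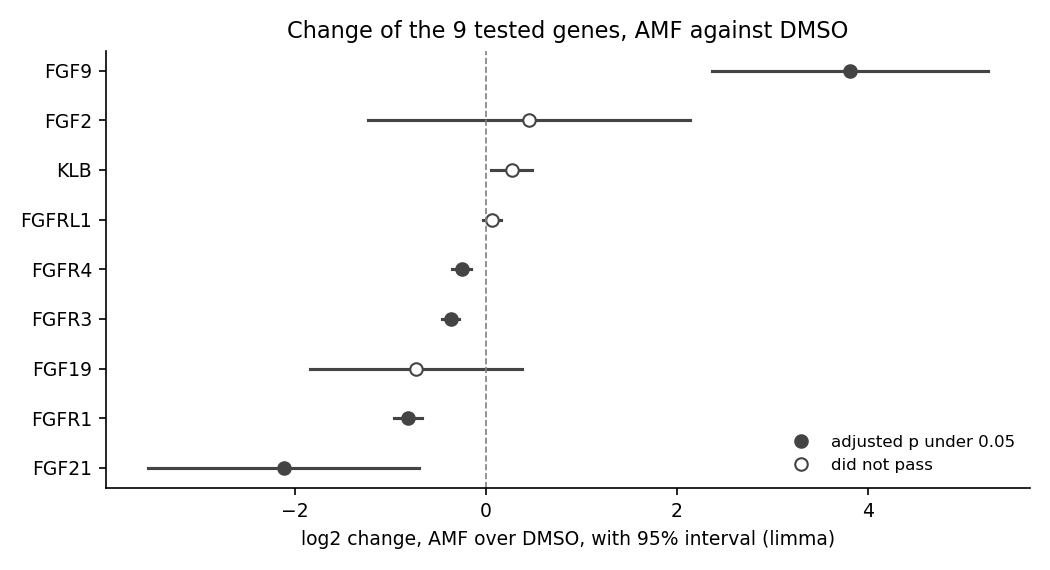
Log2 change of the 9 tested genes, AMF over DMSO, with unadjusted 95% intervals from limma, where filled points passed an adjusted p of 0.05 and open points did not. The interval of FGFR1 (-0.97 to -0.67) is narrow, and those of the ligands are wide, as for FGF2 (-1.24 to 2.14).

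FGFR4, the main FGF receptor of hepatocytes and the partner of beta-klotho for FGF19, was the most abundant of the set per length in both groups. It had 8595 and 7964 normalized counts in AMF and 10176 and 9554 in DMSO. Both AMF libraries lay below both DMSO libraries, and the gap between the groups exceeded the gap within either. It fell by 0.25 on the log2 scale (SE 0.0474, adjusted p = 7.56e-04), which is 0.839 times the DMSO level. The call ended without AMF replicate 1 (adjusted p = 0.161), AMF replicate 2 (0.214) or DMSO replicate 1 (0.106), where the log2 change was -0.31, -0.20 and -0.21.

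FGFR3, a receptor with high affinity for FGF9 in its IIIc form, had 4400.5 and 4405 normalized counts in AMF and 5619 and 5750.3 in DMSO. The AMF libraries were nearly identical and both below DMSO. It fell by 0.37 on the log2 scale (SE 0.0436, adjusted p = 1.24e-05), or to 0.775 times the DMSO level.

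FGFR1, the receptor through which FGF21 signals together with beta-klotho, had the largest fall among the well-expressed genes of the set. Its levels were 639.8 and 651 normalized counts in AMF and 1149 and 1129 in DMSO. The libraries of a group were close together and the groups far apart. It fell by 0.82 on the log2 scale (SE 0.0684, adjusted p = 4.11e-07), or to 0.567 times the DMSO level. Without AMF replicate 1 or 2, when limma-trend called 0 genes in the whole table (6583 and 6386 had an unadjusted p under 0.05), FGFR1 had an adjusted p of 0.0952 and 0.114 and FGFR3 of 0.102 and 0.114. Voom on the recovered reads, which called 1762 and 3152 genes there, gave FGFR1 an adjusted p of 0.0355 and 0.0141 and FGFR3 of 0.0431 and 0.0222. Mesenchymal cells also express FGFR1. The fibroblast markers COL1A2, COL3A1, LUM, DCN and THY1 had at most 3 reads in any library. Among those that fell, COL1A1 had 6 and 8 reads in AMF and 116 and 84 in DMSO. PDGFRB, which also fell, had 28 and 13 reads in AMF and 94 and 105 in DMSO. The summed fibroblast list ran the other way, at 1210 and 1227 normalized counts in AMF and 978 and 976 in DMSO, of which ACTA2 made up 96.9% and 97.8% in AMF and 77.7% and 79.4% in DMSO, and the part of these markers in the FGFR1 result was not tested. FGFR1 shares exon with the opposite-strand gene LETM2 (138 bases, 0.997% of its own exons), which had 76 and 88 reads in AMF and 60 and 57 in DMSO and did not pass (adjusted p = 0.157). The antisense gene AC087623.1, which also shares exon with FGFR1, had no row under that name, so no values can be given.

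FGFR2, an epithelial receptor, had 0 and 1 reads in AMF and 0 and 0 in DMSO. A count of 0 allows up to 3 reads, or 2.79 to 3.09 normalized counts per library, so no fold is given.

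The RefSeq table gave promoter windows for 7 of the 10 genes, from 250 bases before to 50 after a start (GRCh38.p14, another build than the hg19 of the reads), with no entry for FGF19, FGF9 and FGFR1. The windows of FGFR3 and FGFR4 are shown because these receptors hold most FGF receptor reads and fell together. Capitals mark GCGTG on either strand, the core bound by the aryl hydrocarbon receptor with its partner ARNT.

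FGFR3 (chr4:1793043-1793342, + strand): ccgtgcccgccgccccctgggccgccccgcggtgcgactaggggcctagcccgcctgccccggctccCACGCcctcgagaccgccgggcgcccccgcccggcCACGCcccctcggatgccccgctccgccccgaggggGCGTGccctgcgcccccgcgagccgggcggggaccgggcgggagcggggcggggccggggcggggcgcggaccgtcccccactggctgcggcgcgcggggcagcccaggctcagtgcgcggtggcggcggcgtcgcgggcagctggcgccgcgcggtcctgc

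FGFR4, upstream start (chr5:177086665-177086964, + strand): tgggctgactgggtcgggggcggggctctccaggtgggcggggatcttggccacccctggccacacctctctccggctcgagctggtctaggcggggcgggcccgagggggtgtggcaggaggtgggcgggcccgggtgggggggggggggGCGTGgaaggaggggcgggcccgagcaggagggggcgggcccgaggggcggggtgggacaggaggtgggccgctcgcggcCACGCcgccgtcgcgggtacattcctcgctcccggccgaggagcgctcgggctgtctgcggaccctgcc

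FGFR4, downstream start (chr5:177089300-177089599, + strand): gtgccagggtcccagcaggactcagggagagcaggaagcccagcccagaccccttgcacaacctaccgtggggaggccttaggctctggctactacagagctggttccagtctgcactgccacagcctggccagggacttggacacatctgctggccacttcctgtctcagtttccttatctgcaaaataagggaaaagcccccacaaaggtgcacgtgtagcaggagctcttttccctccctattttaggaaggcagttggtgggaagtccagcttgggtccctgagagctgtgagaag

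The FGFR3 window held 3 matches to GCGTG, the upstream FGFR4 window 2 and the downstream FGFR4 window 0. The windows of FGFRL1, KLB and FGF21 held 0 and that of FGF2 held 1. FGFR2 had 5 windows, with 1 match among them. Of 35116 promoter windows in the table, 36.5% held at least 1. The share with more matches, or among windows of like G and C content, was not computed. The FGFR3 window was 86.3% G and C and the upstream FGFR4 window 78.7%, both above the 95th percentile of all windows (77.7%), while the downstream FGFR4 window was at 57.3%, near the median of 58.7%. The E-box CACGTG, which reads alike on both strands, occurred once in the downstream FGFR4 window and once in that of FGFRL1, and in 7.26% of all windows. The antioxidant response core TGACNNNGC, searched on both strands, occurred once each in the windows of FGFRL1, KLB and FGF2, and in 13.3% of all. No match overlapped another in the FGFR3 and FGFR4 windows. Gene counts do not say which FGFR4 start was used.

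Divided by merged exon length, the levels can be set side by side, in an order that depends in part on the length used. FGFR4 stood at 1715 ± 92.3 normalized counts per kilobase in AMF and 2043 ± 91.1 in DMSO (SD, n = 2 each), at percentile 97.7 of genes in AMF and 98.2 in DMSO. FGFR3 stood at 908 ± 0.653 per kilobase in AMF and 1173 ± 19.2 in DMSO, and FGFRL1 at 1086 ± 11.8 in AMF and 1038 ± 4.43 in DMSO. FGFR3 was thus below FGFRL1 in both AMF libraries and above it in both DMSO libraries, with a ratio of FGFRL1 to FGFR3 per kilobase of 1.21 and 1.19 in AMF and 0.898 and 0.873 in DMSO. KLB followed with 202 ± 23.5 per kilobase in AMF and 168 ± 27.7 in DMSO, and FGFR1 with 46.6 ± 0.576 in AMF and 82.3 ± 0.983 in DMSO. Below them, in AMF, came FGF9 (5.21 ± 1.30), FGF19 (2.59 ± 0.0922), FGF21 (2.16 ± 1.94), FGF2 (0.708 ± 0.356) and FGFR2 (0.0680 ± 0.0961), where FGF19 and FGF21 did not differ beyond their spread. In DMSO the order of the ligands was FGF21 (10.8 ± 4.56), FGF19 (4.55 ± 0.0859), FGF2 (0.604 ± 0.646) and FGF9 (0.220 ± 0.311), and FGF2 and FGF9 overlapped. Per coding length, computed after these values were seen, FGFRL1 was above FGFR3 in both groups, with 2976 ± 32.4 normalized counts per coding kilobase in AMF and 2846 ± 12.1 in DMSO for FGFRL1, and 1695 ± 1.22 in AMF and 2188 ± 35.8 in DMSO for FGFR3 (SD, n = 2 each). FGFR1, at 223 ± 2.75 in AMF and 393 ± 4.70 in DMSO, was then below KLB in AMF (392 ± 45.6) and above it in DMSO (326 ± 53.8).

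The kinase receptors summed to 2734 and 2605 normalized counts per kilobase in AMF and 3349 and 3246 in DMSO. FGFR4 made up 65.1% and 63.3% of that sum in AMF and 62.9% and 60.9% in DMSO, FGFR3 33.2% and 34.9% in AMF and 34.6% and 36.5% in DMSO, and FGFR1 1.69% and 1.81% in AMF and 2.48% and 2.51% in DMSO. The FGFR1 share was lower in both AMF libraries, the FGFR3 shares overlapped, and the lower AMF share of FGFR4 lay just above the higher DMSO share. With 2 libraries a group an exact permutation test cannot go below a two-sided p of 0.333, so no test is given. The FGFR1 share depends on length, since its merged exons span 13842 bases against 2895 of coding sequence; per coding length it was 4.33% ± 0.196 in AMF and 6.12% ± 0.0606 in DMSO (SD, n = 2 each).

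**Figure D3:**
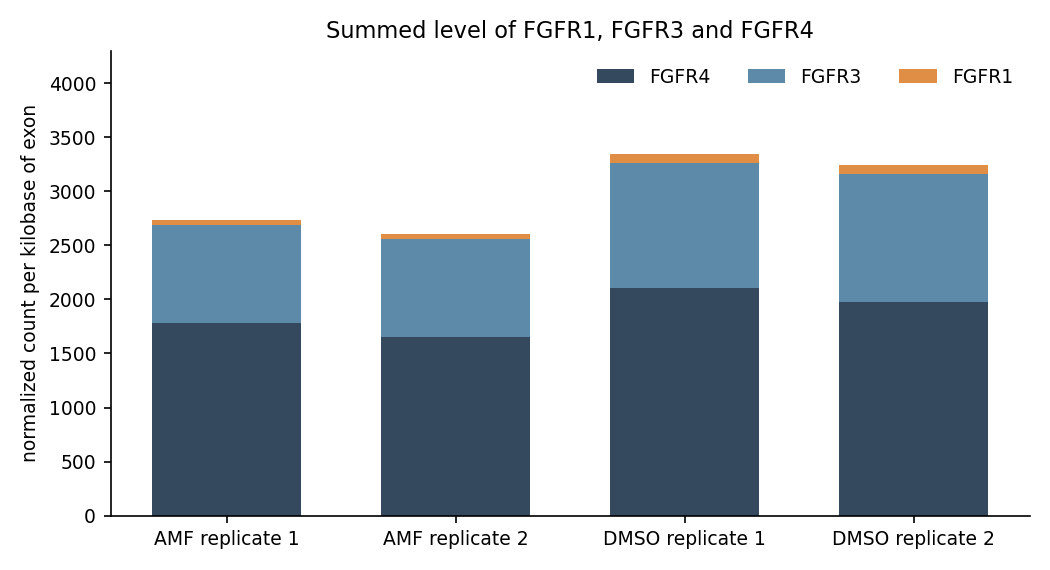
Stacked normalized counts per kilobase of exon of FGFR4, FGFR3 and FGFR1 in the AMF libraries (left) and DMSO libraries (right); FGFR2 is too low to be seen. The stacks reach 2734 and 2605 in AMF, below 3349 and 3246 in DMSO.

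FGFRL1 binds FGFs but has no kinase domain. It had 4535 and 4466 normalized counts in AMF and 4316 and 4290.4 in DMSO. The AMF libraries were both slightly above DMSO, and the difference did not pass (log2 change 0.06, SE 0.0444, unadjusted 95% interval -0.03 to 0.16, adjusted p = 0.309). Against the falling kinase receptors, its count ratio to FGFR4 was 0.528 and 0.561 in AMF and 0.424 and 0.449 in DMSO.

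KLB encodes beta-klotho, the coreceptor that FGF19 and FGF21 need. It had 1329 and 1127 normalized counts in AMF and 1141 and 902 in DMSO. DMSO replicate 1 lay between the AMF libraries, so the groups overlapped, and the gene did not pass (log2 change 0.27, SE 0.10, adjusted p = 0.0539). It passed with an adjusted p of 0.0116 by voom, 0.0354 with library totals as scaling, 0.0191 when genes averaging under 10 were left out, and 7.72e-04 in a fit blocked on replicate number. Its log2 change was 0.44 without DMSO replicate 1, 0.10 without DMSO replicate 2, 0.15 without AMF replicate 1 and 0.39 without AMF replicate 2. The count ratio of KLB to FGFR4 was 0.155 and 0.142 in AMF and 0.112 and 0.0945 in DMSO, higher in both AMF libraries.

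Around these genes, 8 lists of the FGF system held 139 genes, of which 122 were tested. Of those, 22 rose, 39 fell and 61 did not pass, against a median log2 change of 0.04 over all genes tested. Of the 93 listed genes averaging 100 or more, 60.2% were called and 41.9% were called lower, beside 54.7% and 31.1% of all such genes. Of the 29 listed genes averaging under 100, 17.2% were called, beside 11.7% of all such genes. Each list count that follows stands against these shares, and nothing is read from it as particular to the list. With any 1 library left out, 0 of the 61 called genes changed direction, by limma-trend or by voom. Limma-trend kept no call of any gene without AMF replicate 1 or 2, and the other fits with a library left out kept a part of the 61 calls.

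Of 18 other FGF family genes, 10 had a row and 9 were tested, of which 2 rose, 0 fell and 7 did not pass (list median 0.39). The 2 that rose were FGF8, a ligand of limb and brain development, with 4 and 11 reads in AMF and 0 and 0 in DMSO (adjusted p = 0.0146), and FGF18, an FGF of bone and cartilage close to FGF8, with 20 and 13 reads in AMF and 0 and 4 in DMSO (adjusted p = 0.00858). Both rest on few reads. FGF17, also close to FGF8, had the most reads among the FGF ligands, with 152 and 136 in AMF and 102 and 109 in DMSO, and did not pass (log2 change 0.39, adjusted p = 0.0717).

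Of 19 tested coreceptors and binding proteins, 3 rose, 6 fell and 10 did not pass (list median -0.01). The heparan sulfate proteoglycan GPC1 rose by 0.90 (adjusted p = 2.51e-08) and the adhesion molecule L1CAM by 0.96 (adjusted p = 6.97e-08). The proteoglycan GPC6 fell by 1.25 on the log2 scale (adjusted p = 1.28e-08), and N-cadherin (CDH2), which can bind FGFR1, fell by 1.21 (adjusted p = 3.10e-10), with 1811 and 1833 normalized counts in AMF and 4166 and 4264 in DMSO. Alpha-klotho (KL), the coreceptor of FGF23, had 1 and 3 reads in AMF and 0 and 0 in DMSO. Of 20 tested enzymes that build or edit heparan sulfate, 3 rose, 5 fell and 12 did not pass (list median -0.03). The 2-O-sulfotransferase HS2ST1, whose product is part of the FGF2 binding site, fell by 0.65 (adjusted p = 9.34e-08) and the epimerase GLCE by 0.79 (adjusted p = 6.16e-06), while the 6-O-endosulfatase SULF2 rose by 0.53 (adjusted p = 2.83e-04) and the linker enzyme B3GAT3 by 0.41 (adjusted p = 1.22e-04).

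Of 25 adaptors and effectors downstream of the receptors, 4 rose, 7 fell and 14 did not pass (list median -0.06). The docking protein FRS2, which FGF receptors phosphorylate first, did not pass (log2 change -0.06, adjusted p = 0.694), nor did GRB2 (0.03, adjusted p = 0.628). The RAS exchange factor SOS1 rose by 2.38, with 14637 and 14918 normalized counts in AMF and 2769 and 2899 in DMSO, and the adaptor SHC1 rose by 0.38 (adjusted p = 1.05e-05). Its paralog SOS2 and the kinase BRAF fell, each by 0.63 (adjusted p = 9.60e-05 and 6.71e-05).

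Of 11 tested feedback inhibitors of receptor signalling, 1 rose, 5 fell and 5 did not pass (list median -0.41). The 5 falls were among the 8 inhibitors averaging 100 or more, a level at which 31.1% of all genes were called lower. The Sprouty gene SPRY1 fell by 1.22 (adjusted p = 4.98e-09), with 982 and 957 normalized counts in AMF and 2137 and 2402 in DMSO. The phosphatase DUSP4 fell by 0.91 (adjusted p = 4.63e-05), and the other falls were SPRY4 (-0.67), SPRED2 (-0.51) and the ERK phosphatase DUSP6 (-0.19). SPRED3 rose by 1.40 (adjusted p = 1.71e-04), with 100 and 103 reads in AMF and 37 and 36 in DMSO. Of 10 transcription factors and early genes that respond to growth factors, 4 rose, 4 fell and 2 did not pass (list median 0.08). The ETS factors moved together, ETV1 with a log2 change of -1.18, ETV4 of -0.80 and ETV5 of -0.68, and ETV4 had 5900.1 and 5579 normalized counts in AMF and 9893 and 10047 in DMSO. The AP-1 genes FOS (1.40) and FOSL1 (0.99) rose, as did MYC (0.45) and PHLDA1 (0.60), so the list did not move one way.

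**Figure D4:**
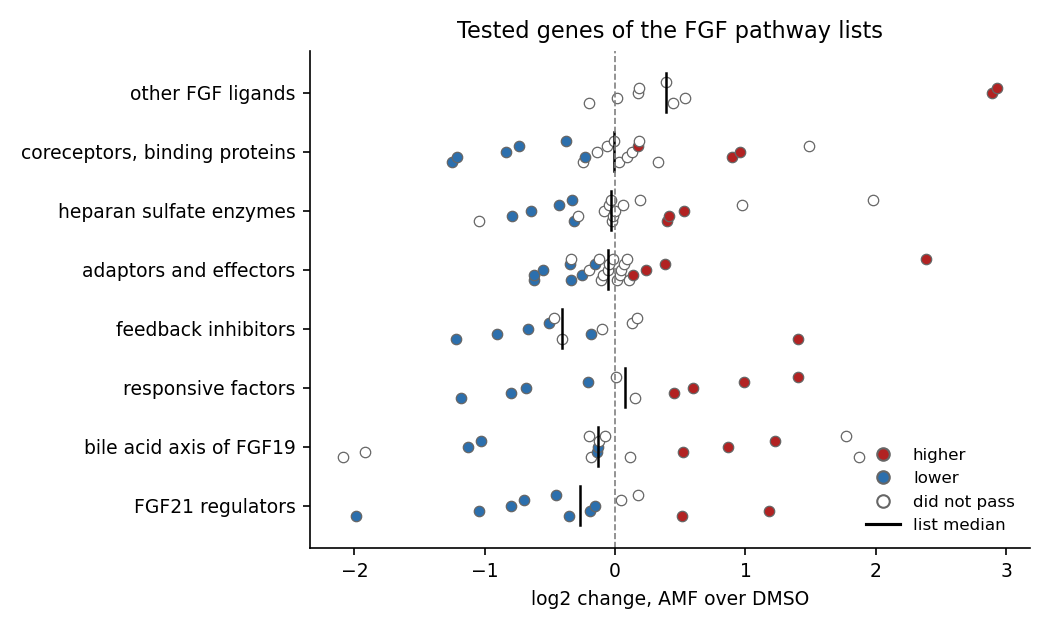
Log2 change, AMF over DMSO, of each tested gene of the 8 FGF system lists, where red points rose, blue points fell, open points did not pass, and black bars mark list medians. The median lies lowest for feedback inhibitors (-0.41) and FGF21 regulators (-0.27). It lies highest for the other FGF family genes, labelled other FGF ligands (0.39).

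The bile acid axis, on which FGF19 acts, was split. Of 16 tested genes, 3 rose, 4 fell and 9 did not pass (list median -0.13). The bile acid receptor gene NR1H4 (FXR), which induces FGF19 in the intestine, fell by 1.03 (adjusted p = 5.33e-07), with 514 and 442 normalized counts in AMF and 931 and 1025 in DMSO. The phospholipid exporter ABCB4 fell by 1.13 (adjusted p = 1.49e-06). The liver factor HNF4A rose by 0.86 (adjusted p = 1.10e-09), and BAAT, which conjugates bile acids, rose by 1.23 (adjusted p = 0.0174) on 36 and 30 reads in AMF and 13 and 13 in DMSO. CYP7A1, the rate-limiting enzyme of bile acid synthesis that FGF19 represses, had 0 and 1 reads in AMF and 5 and 5 in DMSO and did not pass (adjusted p = 0.0627).

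Of 12 tested regulators of FGF21, 2 rose, 8 fell and 2 did not pass (list median -0.27). All 12 averaged 100 or more, a level at which 54.7% of all genes were called and 31.1% were called lower. Among the falls were stress factors that act on the FGF21 promoter, ATF4 (-0.35, adjusted p = 2.33e-05) and DDIT3 (-0.80, adjusted p = 1.71e-04), with XBP1 (-0.70, adjusted p = 2.95e-08). ATF4 had 11411 and 11238 normalized counts in AMF and 13822 and 15087 in DMSO. The largest falls were those of the nuclear receptors RORA (-1.99, adjusted p = 8.55e-07) and NR4A1 (-1.05, adjusted p = 4.34e-05). CREB3L3, a liver factor that activates FGF21 in fasting, rose by 1.18 (adjusted p = 2.54e-07) and the xenobiotic receptor NR1I2 by 0.52 (adjusted p = 1.92e-04). PPARA, the fasting receptor upstream of FGF21, did not pass (0.04, adjusted p = 0.702).

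Genes whose centred log2 levels over the 4 libraries lay nearest to those of FGFR1, FGFR3 and FGF9 were sought among the 11137 genes averaging 100 or more. For FGFR1 they were SEMA3F, LTBP3 and ZNF107, at Euclidean distances of 0.0101 to 0.0212 on the log2 scale. For FGFR3 they were ZFP36L1, TPT1 and TRNAU1AP (0.0102 to 0.0151). For FGF9 they were AGR2, UGT1A1 and MBL2, much farther off (0.903 to 1.145). With 4 libraries in 2 groups such nearness says little beyond a like log2 change.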

How the data were processed

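RNA of AMF and DMSO cells was sequenced after poly(A) selection without strand, as the protocols in the labels state. The submitters' processing notes name STAR 2.7.0, featureCounts and hg19; the annotation used, any filter and the scaling are not given in those notes, the labels or the file. Deposited by the authors were log2 values for 30863 genes and 0 columns of other samples. Their form is that of a variance-stabilizing transformation of counts over size factors, read from the values. Inverting it gave normalized counts, and dividing by the worth of 1 read (0.929 to 1.03) gave reads, 100% of them whole within 0.01. The size factors so recovered were 1.08 and 0.971 in AMF and 1.00 and 0.974 in DMSO. Factors computed from these reads by the median-of-ratios method were the same.

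Limma-trend (limma 3.58.1, R 4.3.3) was run on log2(normalized count + 1) for 23828 genes averaging 1 or more. Group was its one term, and p-values were adjusted by Benjamini-Hochberg over all these genes. The pseudocount understates changes of low genes. Read-ratio intervals are exact binomial (95%), cover counting error only, and treat reads as independent molecules, which reads without molecular identifiers are not. The fit was tested on simulated data. Exon lengths and overlaps came from GENCODE 29, neighbours and promoters from RefSeq, both on another build than hg19, so no gene coordinates are given beyond the promoter windows.

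The genes and lists were chosen with earlier results of these data known. From each list up to 2 called rises and 2 called falls with a mean of at least 10 were named by rule, and 3 nearest genes for each of the 3 FGF genes with the smallest adjusted p; FGF8, FGF18, FGF17, KL, FRS2, GRB2, SPRY4, SPRED2, DUSP6, ETV5, MYC, PHLDA1, CYP7A1, ATF4, DDIT3, XBP1, PPARA, FUT1 and BCAT2 were named after their values were seen. Alternatives were a pseudocount of 0.1, no filter, a mean of at least 10, each library left out, the replicate block, the deposited log2 values, voom, and library totals or TMM as scaling. Figures were drawn with matplotlib 3.10.9.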

Additional observations from a re-analysis of the deposited data

How the results depend on the processing

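Among the FGF genes, the calls and directions of FGFR1, FGFR3, FGFR4 and FGF9 were kept under a pseudocount of 0.1, no filter, a mean of at least 10, the deposited log2 values, voom, library totals, TMM and the block. FGF21, at -2.11 as reported, no longer passed with a pseudocount of 0.1 (-2.56) or without a filter (-2.11), although its log2 change was no smaller, and at a mean of at least 10 it was not tested. KLB passed with a mean of at least 10 (0.27), the replicate block (0.27), voom (0.27) and library totals (0.29), which made 2 members higher in place of 1. Replacing the size factors shifted log2 changes by about 0.02 (library totals) or -0.01 (TMM).

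Replicate numbers are shared between the groups, and deviations of same-numbered libraries correlated at 0.014 over 15845 genes. This value shows little shared deviation. It cannot decide whether the numbers pair the libraries, since each group gives only the difference between its replicates. With the replicate block, 8157 genes were called against 7578 without it.

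Requiring also a size of 1 on the log2 scale left 1183 higher and 489 lower genes, and among the FGF genes 1 higher and 1 lower. With 1 library left out, limma-trend called 0 to 3067 genes higher and 0 to 3110 lower, 0 to 1 FGF genes higher and 0 to 3 lower, and 0 to 21 listed pathway genes higher and 0 to 31 lower. The log2 change then ranged from -2.85 to -1.38 for FGF21, 3.02 to 4.60 for FGF9, -0.56 to 1.47 for FGF2, -0.83 to -0.81 for FGFR1, -0.39 to -0.35 for FGFR3 and -0.31 to -0.20 for FGFR4. FGF2 turned negative without DMSO replicate 1, by limma-trend (-0.56) and by voom (-0.59). Voom called 854 genes higher and 908 lower without AMF replicate 1, with 9 and 18 pathway genes, and 1513 higher and 1639 lower without AMF replicate 2. By voom FGF21 lost its call without AMF replicate 1 (-3.19), AMF replicate 2 (-1.46) and DMSO replicate 2 (-1.85), FGF9 without AMF replicate 1 (4.63), AMF replicate 2 (4.13) and DMSO replicate 2 (3.24), and FGFR4 without AMF replicate 1 (-0.31) and AMF replicate 2 (-0.20), while KLB passed without DMSO replicate 1 (0.44). Leaving out a library leaves a group with 1, assumed to vary like the other group; the cause of each loss was not tested.

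Per coding length or with no division by length, the FGFR1 share differed between AMF and DMSO by -1.78 or -1.98 percentage points, and per exon length by -0.75.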
